A study of Mus musculus with 48 samples.

Results

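Copaxone, a brand of glatiramer acetate (a mixture of synthetic polypeptides given in multiple sclerosis), was compared with medium alone in mixed cultures of a mouse T cell line and splenocytes. The comparison takes the 17 samples whose titles name Copaxone and the 7 media-only samples, 24 of the 48 arrays of the series, and covers all 39430 probes of the deposited table. Each well held Th2-455, a nonclonal Th2-polarized CD4+ T cell line raised from Balb/c mice (female, 8 to 12 weeks old) immunized with Copaxone and restimulated with it for 13 rounds, together with an excess of splenocytes from naive Balb/c mice as antigen-presenting cells (APCs). Copaxone was present at 20 µg/mL for 24 h and came from 9 lots, 8 of them with 2 wells and lot 8 with 1. The media-only control held the same cells for the same time with no glatiramer. All wells were set up on 1 day with this 1 cell line, and the labels name no separate mice or cultures as replicates, so the errors and p-values measure the spread between wells and not between mice or T cell lines.

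A helper T cell that meets its peptide on the MHC class II molecules of an APC leaves the resting state, grows, divides and releases cytokines. A Th2 cell releases interleukin-4 and interleukin-13, which act on B cells, macrophages and dendritic cells through the transcription factor STAT6. In such a culture the APC presents the antigen and also responds to what the T cell makes. Both were lysed together here, so every value belongs to the whole well. Whether a lower value stands for fewer cells of a type or for less RNA per cell cannot be told apart, and an equal mass of RNA was labelled from each well. The cell known to make a transcript is given as background, and the cell that made it in these wells was not tested.

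Values are log2 intensities, and a log2 fold change is the Copaxone mean minus the media-only mean with its standard error from limma. The call of a probe as higher or lower required a two-sided p under 0.05 after Benjamini-Hochberg adjustment. Of all probes, 16.2% were called, 8.71% higher and 7.46% lower. With 1 probe per gene, 18.6% of 22485 genes were called, 10.1% higher and 8.46% lower, and the median log2 fold change over all genes was -0.0022. These shares are the background for the counts of each gene list. In all, 307 probes changed at least 2-fold, 141 higher and 166 lower. All 17 Copaxone samples lay above all 7 media-only samples for 1.09% of probes and below all of them for 1.43%. Array medians lay between 4.94 and 5.00, so a probe with a group mean under 5.2 is near the middle of its arrays and is called dim in that group. Correlations of a sample with the mean of the rest of its group lay between 0.964 and 0.993, and the lowest belonged to replicate 1 of Copaxone lot 9. That sample and replicate 1 of lots 7 and 3 had 324, 219 and 164 probes more than 2 log2 units from the group median. No other Copaxone sample had more than 112. The labels call the cells CD4+ T cells. The Cd4 probe itself was dim in both groups (media-only mean 5.17, Copaxone mean 5.12), whereas T cell genes such as Cd3d and B cell genes such as Ms4a1 were both well above the array medians.

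Most measured genes of T cell activation rose. Of 23 measured genes of T cell activation and effector function, 15 were called higher and 0 lower, with a median log2 fold change of 0.35 (12 higher and 2 lower after cyclic loess was applied to the deposited values). Of all genes, 10.1% were called higher. In the activation list, 7 of the 23 genes were dim in both groups, Fasl, Lag3 and Havcr2 among them. Xcl1 encodes a chemokine that activated T cells and NK cells release to attract cross-presenting dendritic cells. Its log2 intensity ranged from 4.61 to 5.06 (median 5.02) in the media-only control and from 5.78 to 7.02 (median 6.44) with Copaxone. The groups did not overlap, and Xcl1 rose 2.8-fold (log2 fold change 1.48 ± 0.11, adjusted p = 2.20e-10). Granzyme B, a cytotoxic granule protease encoded by Gzmb, ranged from 7.95 to 8.49 (median 8.19) in the media-only control and from 8.85 to 9.59 (median 9.14) with Copaxone and rose 1.93-fold (log2 fold change 0.95 ± 0.09, adjusted p = 9.48e-09), again with no overlap. Gzme, which belongs to a cluster of granzyme genes of similar sequence whose signals may not be fully separated by the probes, rose from a dim level: its values ranged from 4.61 to 4.86 (median 4.73) in the media-only control and from 6.03 to 9.37 (median 6.73) with Copaxone (log2 fold change 2.09 ± 0.26, adjusted p = 8.97e-07), and both of its probes were called higher. Slamf1, a co-receptor on activated lymphocytes, Il2ra, the high-affinity chain of the interleukin-2 receptor, and Ctla4, an inhibitory receptor, rose by log2 0.84, 0.56 and 0.43. Not every activation gene passed the test. Icos (0.12) and Cd200 (-0.18) were not called, and neither were the inhibitory receptor Pdcd1 (-0.22) and Tnfrsf18 (-0.21). The other of the 2 Icos probes was called higher, as was Icos with means per gene symbol (log2 fold change 0.24, adjusted p = 0.0465). Cd200 was called lower without media-only replicate 4 (adjusted p = 0.0385). Pdcd1 and Tnfrsf18 were both called lower after cyclic loess (adjusted p = 0.0448 and 0.0358). Pdcd1 was also called lower without media-only replicate 6 (0.0491), without the 3 samples that correlated least with their group (0.0321) and with replicate number as a block (0.0182).

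A group of genes better known from cytotoxic lymphocytes was among those that rose. Of 14 NK cell genes, 5 were called higher and 0 lower, with a median of 0.11. These were Nkg7, a granule protein, the T-box transcription factors Eomes and Tbx21, perforin (Prf1) and Klra8. Nkg7 ranged from 5.56 to 6.26 (median 5.95) in the media-only control and from 6.71 to 7.68 (median 6.97) with Copaxone, a 2.12-fold rise (log2 fold change 1.08 ± 0.10, adjusted p = 4.65e-09) found by both of its probes. Eomes ranged from 5.28 to 5.73 (median 5.42) in the media-only control and from 5.95 to 6.58 (median 6.26) with Copaxone (log2 fold change 0.77 ± 0.08, adjusted p = 1.04e-07), and Tbx21, the master regulator of Th1 cells, ranged from 4.88 to 5.40 (median 5.28) in the media-only control and from 5.52 to 6.26 (median 5.86) with Copaxone (log2 fold change 0.61 ± 0.08, adjusted p = 2.87e-06). In each of these 3 genes the groups did not overlap. The defining NK cell receptors stayed dim: Ncr1 had a media-only mean of 4.84 and a Copaxone mean of 4.95, and Klrb1c had 4.90 and 5.01, and neither was called. In all, 9 of the 14 genes of the list were dim in both groups. The summed linear intensity of the list ran from 465.8 to 496.5 in the media-only samples and from 590.9 to 728.8 with Copaxone. Such a sum, here and for the lists below, weighs the brightest probes most. Klra8 (log2 fold change 0.30) is one of the Ly49 receptors, a family of near-identical copies that differs between mouse strains, so its probe may read other members. Of the CD8 chains, Cd8a rose by log2 0.46 with no overlap between groups, while Cd8b1 did not change past the test (-0.04). Cd8a is also carried by a subset of dendritic cells and by some activated T cells, and the part of each was not tested.

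**Figure D1:**
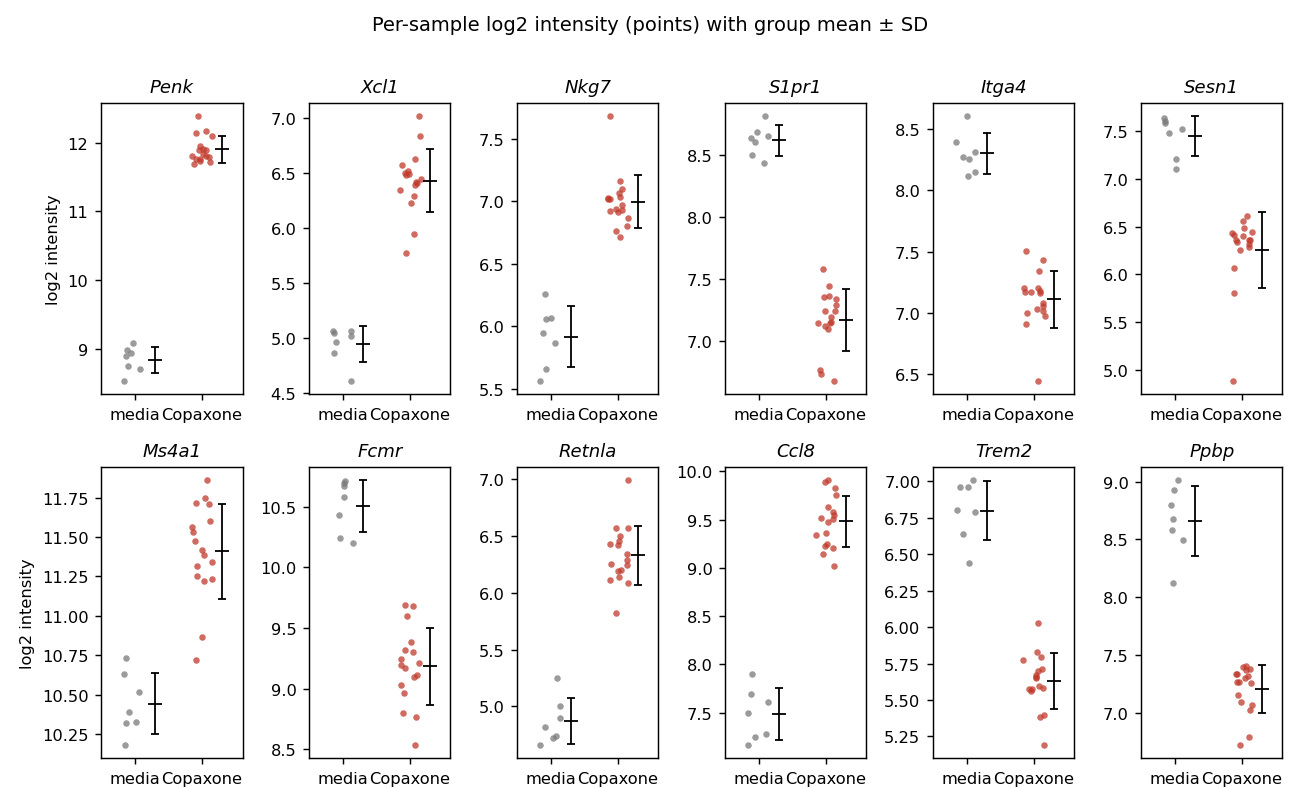
Log2 intensity in each of the 7 media-only samples and 17 Copaxone samples for 12 genes, with group means and SDs as black bars and a separate vertical scale for each gene. Penk, Xcl1, Nkg7, Retnla and Ccl8 lie above every media-only sample in all 17 Copaxone samples, S1pr1, Itga4, Sesn1, Fcmr, Trem2 and Ppbp lie below, and 16 of 17 Copaxone samples lie above for Ms4a1.

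Penk was the peptide hormone gene that moved most. It encodes proenkephalin, the precursor of the enkephalin opioid peptides, which activated mouse helper T cells are known to transcribe. Penk ranged from 8.53 to 9.08 (median 8.90) in the media-only control and from 11.69 to 12.38 (median 11.83) with Copaxone, an 8.34-fold rise (log2 fold change 3.06 ± 0.08, adjusted p = 2.16e-19) on top of a level that was already high without Copaxone. Of 18 measured neuropeptide and peptide hormone genes, 15 were dim in both groups, Pomc, Npy, Vip and Tac1 among them. Nts, the neurotensin precursor, rose slightly (log2 fold change 0.40 ± 0.07, adjusted p = 0.000112) from a dim level, and 6 of 17 Copaxone samples exceeded the media-only range. Nmb, which encodes neuromedin B, fell: it ranged from 6.53 to 7.13 (median 6.89) in the media-only control and from 5.78 to 6.68 (median 6.23) with Copaxone (log2 fold change -0.66 ± 0.09, adjusted p = 3.55e-06), and both of its probes were called lower.

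While activation genes rose, part of the T cell antigen receptor machinery fell. Of 19 genes of CD4 T cell identity, 7 were called lower and 0 higher, with a median of -0.16. Cd3d, a chain of the receptor complex, ranged from 9.47 to 9.93 (median 9.79) in the media-only control and from 8.32 to 9.61 (median 8.91) with Copaxone (log2 fold change -0.75 ± 0.10, adjusted p = 7.19e-06). The signalling adaptors Skap1 and Lat fell by log2 0.84 and 0.83. The co-receptors Cd5, Cd28 and Cd6 had log2 fold changes of -0.98, -0.98 and -0.73, Cd6 by 1 of its 2 probes. By contrast, Thy1 (-0.04) and Zap70 (-0.16) were not called, and neither were Cd3e (-0.81) and Cd3g (-0.81). For Cd3e, 3 Copaxone samples, replicate 1 of lots 3, 7 and 9, were at 5.80, 6.43 and 5.56, and the others lay between 8.06 and 8.72, beside 8.03 to 9.29 in the media-only control. Cd3g passed the test after cyclic loess (log2 fold change -0.88, adjusted p = 0.0479). The summed linear intensity of the list ran from 5498 to 6326 in the media-only samples and from 3915 to 5038 with Copaxone.

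Of 12 measured genes of the Th2 lineage, Il4ra was called higher and Rnf128 lower, a share of 16.7% beside 18.6% of all genes, and 5 of the 12 were dim in both groups. Gata3, the master regulator of Th2 cells, ranged from 7.34 to 8.10 (median 7.63) in the media-only control and from 7.02 to 8.22 (median 7.70) with Copaxone, so that the groups overlapped widely (log2 fold change 0.03 ± 0.12, adjusted p = 0.918), and Maf (0.04) and Stat6 (-0.08) were not called. Il4ra, a chain of the interleukin-4 receptor, rose by log2 0.33, by 1 of its 2 probes, and was dim in both groups. Its call was lost without the 3 samples that correlated least with their group. Rnf128 encodes GRAIL, a ubiquitin ligase linked to T cell anergy. It ranged from 9.67 to 10.22 (median 9.91) in the media-only control and from 7.89 to 9.54 (median 8.90) with Copaxone, a 2.17-fold fall with no overlap (log2 fold change -1.12 ± 0.14, adjusted p = 1.10e-06).

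Most measured genes of resting lymphocytes fell. Of 17 measured genes of naive and quiescent T cells, 12 were called lower and 0 higher, with a median log2 fold change of -0.52, and none of the 17 was dim in both groups. S1pr1, the sphingosine-1-phosphate receptor by which lymphocytes leave lymphoid organs, ranged from 8.43 to 8.82 (median 8.64) in the media-only control and from 6.68 to 7.59 (median 7.20) with Copaxone. The fall was 2.73-fold (log2 fold change -1.45 ± 0.10, adjusted p = 1.83e-11), and all 17 Copaxone samples lay below all media-only samples. Cdkn1b, the inhibitor p27 that holds cells out of the cycle, fell 2.05-fold (log2 fold change -1.03 ± 0.10, adjusted p = 3.71e-08), though only 1 of its 2 probes was called. Dgka, which removes the diacylglycerol made after T cell receptor triggering, Txnip, an inhibitor of glucose uptake, and Pik3ip1, an inhibitor of PI3 kinase, had log2 fold changes of -0.96, -0.96 and -0.81, each with no overlap. Foxo1, a transcription factor that maintains the resting state, and Btg1, an antiproliferative gene, fell less (-0.46 and -0.46). Ccr7, the receptor that guides lymphocytes to lymph nodes, had a larger spread, and its values ranged from 8.92 to 11.14 (median 10.93) in the media-only control and from 8.57 to 10.62 (median 9.84) with Copaxone. Replicate 1 of the media-only control was the low one, the groups overlapped, and the fall was 1.98-fold (log2 fold change -0.98 ± 0.27, adjusted p = 0.00996). Several of these genes are expressed by resting B cells as well as T cells, and the share of each cell in the falls was not tested.

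Adhesion genes split in the same wells. Itga4 and Itgb7 encode the 2 chains of the integrin that homes lymphocytes to the gut. Itgb7 ranged from 9.48 to 9.82 (median 9.67) in the media-only control and from 8.08 to 8.72 (median 8.38) with Copaxone (log2 fold change -1.27 ± 0.08, adjusted p = 2.88e-12), and Itga4 ranged from 8.12 to 8.61 (median 8.27) in the media-only control and from 6.44 to 7.50 (median 7.17) with Copaxone (log2 fold change -1.19 ± 0.09, adjusted p = 5.84e-10). Both fell more than 2-fold with no overlap, although only 1 of the 2 Itga4 probes was called. Itgb3, the beta chain of the vitronectin receptor and of the platelet fibrinogen receptor, went the other way: it ranged from 7.11 to 7.60 (median 7.54) in the media-only control and from 8.05 to 9.27 (median 8.55) with Copaxone (log2 fold change 1.10 ± 0.11, adjusted p = 5.87e-08), and both of its probes were called higher. Among 28 cytoskeleton and adhesion genes, 3 were called higher and 9 lower. S100a10, a partner of annexin A2, and Anxa1, which encodes annexin A1, fell by log2 1.33 and 1.13, and Cfl1, which severs actin filaments, rose by log2 0.88.

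Receptors for chemoattractants and lipids and their intracellular brakes also moved in both directions. Of 24 measured G protein-coupled receptors of this list, which also holds receptors for complement, formyl peptides and nucleotides, 2 were called higher and 6 lower, and 9 were dim in both groups. Besides S1pr1, the lysophospholipid receptors Lpar6 and Gpr174 and the acid- and lipid-sensing receptor Gpr132 fell, with log2 fold changes of -0.996, -0.76 (by 1 of its 2 probes) and -0.88. P2ry10, which like Gpr174 is known to bind lysophosphatidylserine, rose by log2 0.85 ± 0.18, and 11 of 17 Copaxone samples exceeded the media-only range. Gpr183 directs B cells, T cells and dendritic cells towards oxysterols, and it ranged from 6.11 to 6.58 (median 6.43) in the media-only control and from 6.55 to 7.39 (median 7.09) with Copaxone (log2 fold change 0.65 ± 0.09, adjusted p = 4.60e-06). Ch25h makes 25-hydroxycholesterol, from which the Gpr183 ligand is derived. It was dim in every media-only sample and rose 2.93-fold: it ranged from 4.68 to 4.91 (median 4.81) in the media-only control and from 6.04 to 6.66 (median 6.36) with Copaxone (log2 fold change 1.55 ± 0.06, adjusted p = 3.88e-16). RGS proteins switch off the G proteins of such receptors. Rgs2, Rgs10, Rgs3 and Rgs14 fell (-1.34, -0.98, -0.78 and -0.66), although for Rgs2 1 of 2 probes and for Rgs3 1 of 3 were called, and Rgs16 rose (0.68). The other 7 of the 12 RGS genes were not called, and Rgs1 was at 0.01.

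In the kinase and transcription factor lists single members stood out. Egr2, which is induced by T cell receptor and B cell receptor signals, ranged from 6.18 to 7.25 (median 7.04) in the media-only control and from 7.31 to 8.95 (median 8.34) with Copaxone (log2 fold change 1.39 ± 0.17, adjusted p = 6.55e-07). Jun rose by log2 0.95 and Nr4a1 fell by log2 0.70, while Egr1 (0.03), Egr3 (-0.06) and Nr4a3 (0.02) were not called at this time. The MAP kinase phosphatases Dusp10 and Dusp4 rose (0.85 and 0.58). Spry2, an inhibitor of receptor signalling, varied between 5.56 and 8.52 in the media-only samples alone. Its fall (log2 fold change -1.15 ± 0.26, adjusted p = 0.00208) left 13 of 17 Copaxone samples within the media-only range.

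Of 15 measured p53 target genes, 3 were called lower and 0 higher, a share of 20% beside 18.6% of all genes. Their median log2 fold change was -0.01. Sesn1, an inhibitor of the growth kinase mTORC1, ranged from 7.11 to 7.63 (median 7.52) in the media-only control and from 4.88 to 6.62 (median 6.36) with Copaxone and fell 2.28-fold (log2 fold change -1.19 ± 0.15, adjusted p = 1.66e-06). Bbc3, which encodes the death-promoting protein PUMA, and Trp53inp1, a stress protein, fell by log2 0.64 and 0.76, both with no overlap. Only 1 of the 2 Trp53inp1 probes was called. Cdkn1a and Mdm2, the best known p53 targets, were not called (0.12 and -0.09). Ddit4, another inhibitor of mTORC1, fell by log2 0.87.

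Nfil3 rose, and some of its counterparts fell. Nfil3 encodes a repressor that competes with Dbp, Tef and Hlf for the same DNA site, the D-box. Nfil3 rose 6.33-fold (log2 fold change 2.66 ± 0.21, adjusted p = 7.19e-10), whereas Tef, Dbp and the clock repressor Nr1d2 fell by log2 0.43, 0.31 and 0.54, with 10, 7 and 16 of 17 Copaxone samples below every media-only sample. Dbp and Nr1d2 were each called by 1 of 2 probes, and with the median over all probes of each gene the list had 1 gene called lower. Hlf was dim. The other clock genes were not called, among them Per1 (-0.12), Arntl (0.15) and Bhlhe40 (-0.02), so that 1 rose and 3 fell of 16 measured. This was a share of 25% beside 18.6% of all genes. The median log2 fold change of the list was -0.03, and 8 of the 16 genes were dim in both groups.

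B cell genes did not move as a block. Of 23 genes of B cell identity, 4 were called higher and 7 lower, and 12 were not called. Ms4a1, which encodes CD20, ranged from 10.18 to 10.73 (median 10.39) in the media-only control and from 10.72 to 11.86 (median 11.42) with Copaxone (log2 fold change 0.97 ± 0.12, adjusted p = 9.63e-07), and all but 1 Copaxone sample lay above the media-only control. Pou2af1, a coactivator needed for germinal centres, Bcl11a, a B lineage transcription factor, and Cd79b, a signalling chain of the B cell receptor, rose by log2 0.90, 0.68 and 0.50. Only 1 of the 2 Bcl11a probes was called. Fcmr, the receptor for IgM, fell: it ranged from 10.20 to 10.71 (median 10.58) in the media-only control and from 8.54 to 9.69 (median 9.20) with Copaxone (log2 fold change -1.32 ± 0.12, adjusted p = 1.10e-08). Fcrl1 and Cd72, a coactivator and an inhibitory co-receptor of the B cell receptor, had log2 fold changes of -0.85 and -1.02, and 1 Copaxone sample was far below the others for Cd72, at 6.36. The complement receptor Cr2 and Fcrla fell more than any other gene of this list (-1.95 and -2.16). Spib (0.01), Ebf1 (0.12), Blnk (-0.08) and Bank1 (0.01) were not called. The summed linear intensity of the B cell list overlapped between groups, from 16170 to 19860 in the media-only samples and from 16540 to 24500 with Copaxone. Bright probes such as that of Cd79b (media-only mean 12.48, Copaxone mean 12.98) weigh most in this sum.

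Genes listed for the response of B cells to interleukin-4 and CD40 signals were also split, with 5 called higher and 5 lower of 17. The list is not limited to genes that these signals raise. The paper counts Icosl among genes regulated by STAT6 and GATA3 that decreased. Cd83, which stabilizes MHC class II at the cell surface, ranged from 10.19 to 10.96 (median 10.53) in the media-only control and from 11.19 to 12.29 (median 11.66) with Copaxone (log2 fold change 1.16 ± 0.11, adjusted p = 1.30e-08). Il4i1, an amino acid oxidase that interleukin-4 induces in B cells, rose 4.4-fold, and Batf, a factor needed for class switching, rose by log2 0.87 ± 0.06. Cd40 itself rose by log2 0.46. In the opposite direction Icosl, the ligand by which APCs engage ICOS on T cells, ranged from 8.47 to 8.91 (median 8.72) in the media-only control and from 6.16 to 7.24 (median 6.76) with Copaxone, a 3.79-fold fall (log2 fold change -1.92 ± 0.09, adjusted p = 1.98e-14). Cd80, a ligand of CD28 and CTLA-4, fell by log2 0.70, by 1 of its 2 probes. H2-Oa, which restrains peptide loading on MHC class II, fell by log2 0.46. Xbp1, a transcription factor of secretory cells, rose by log2 1.43 ± 0.11, but the plasma cell genes Jchain and Sdc1 fell by log2 0.81 and 0.53, and Mzb1 (-0.04) was not called.

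**Figure D2:**
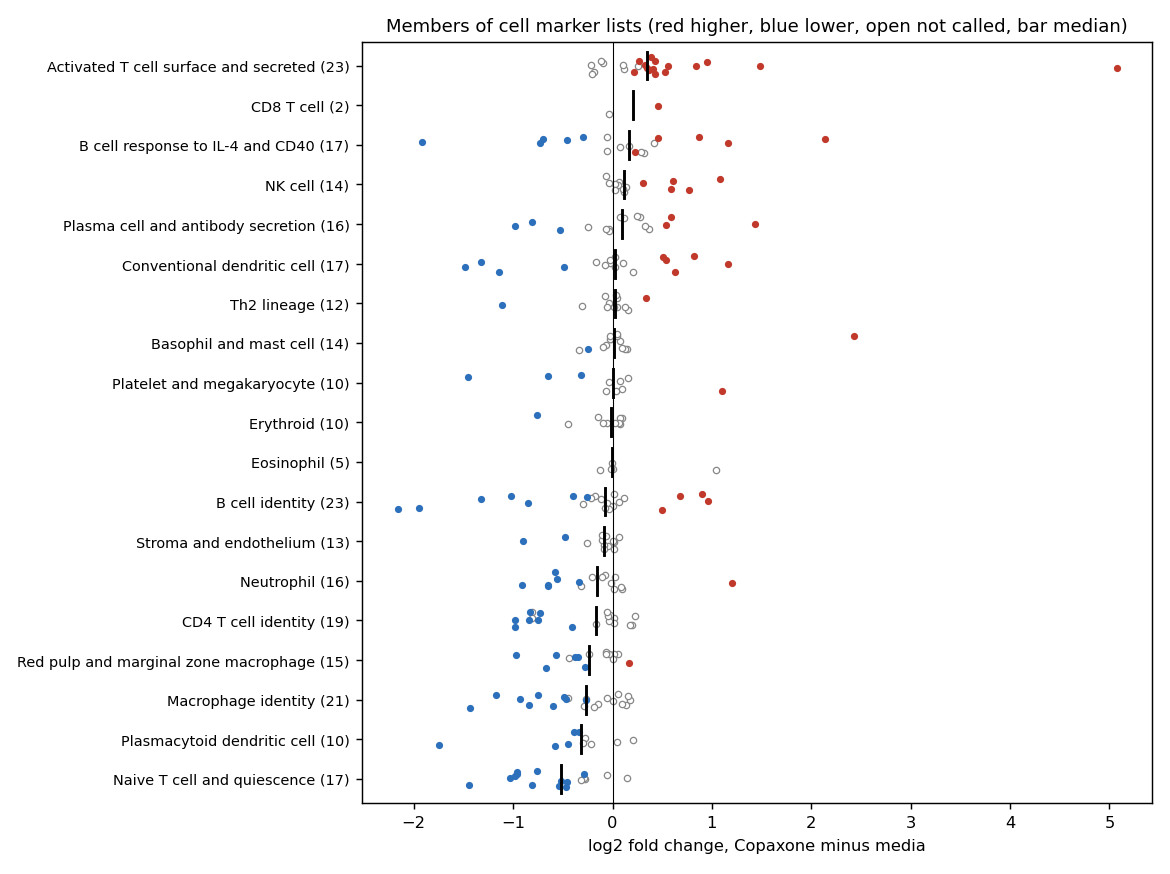
Log2 fold change (Copaxone minus media) of each measured member of the 19 cell marker lists, with the number measured in brackets, filled red where called higher, filled blue where called lower and open where not called, and a black bar at the median. Activated T cell genes have the highest median (0.35) and naive T cell and quiescence genes the lowest (-0.52), while the lists of B cells and conventional dendritic cells hold members called in both directions.

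Genes known from the response of macrophages and dendritic cells to interleukin-4 were called in both directions. No list was set up for them, those named here were chosen after their values were seen, and Clec10a and Cd36, which interleukin-4 also induces in mouse macrophages, fell (-1.32 and -0.98). Retnla and Chil3 encode secreted proteins (FIZZ1 and Ym1) that mark mouse macrophages exposed to interleukin-4 or interleukin-13. Retnla was dim without Copaxone and ranged from 4.66 to 5.25 (median 4.82) in the media-only control and from 5.83 to 6.995 (median 6.29) with Copaxone, a 2.75-fold rise (log2 fold change 1.46 ± 0.11, adjusted p = 1.02e-10). Chil3 ranged from 5.88 to 6.79 (median 6.47) in the media-only control and from 7.51 to 8.99 (median 8.03) with Copaxone, a 2.95-fold rise (log2 fold change 1.56 ± 0.14, adjusted p = 4.69e-09). Chil3 has close paralogs whose RNA its probe may also bind. Arg1, which consumes arginine, and Tgm2, a crosslinking enzyme, rose by log2 0.64 and 1.25, the latter by both of its probes. Ccl17, a chemokine that attracts Th2 cells, and Ccl8, a chemokine for the receptor CCR8 in mice, rose 2.23-fold and 3.99-fold. Ccl8 ranged from 7.17 to 7.90 (median 7.50) in the media-only control and from 9.02 to 9.91 (median 9.51) with Copaxone (log2 fold change 1.995 ± 0.11, adjusted p = 1.21e-12), a gap of more than 1 log2 unit between the groups. Il1r2, the decoy receptor that binds interleukin-1 without signalling, ranged from 4.88 to 5.86 (median 5.29) in the media-only control and from 6.03 to 6.97 (median 6.54) with Copaxone (log2 fold change 1.20 ± 0.11, adjusted p = 8.74e-09). It was the single gene called higher among 16 measured genes of neutrophils, which also carry it. Socs1, an inhibitor of cytokine receptor signalling in many cell types, rose 5-fold (log2 fold change 2.32 ± 0.15, adjusted p = 1.10e-11).

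The promoters of 3 of these genes are shown because they are textbook targets of cytokine signalling whose proximal sequence holds a searched motif. They were chosen after their values were seen. Sequences are the 250 bases before the start of the gene from RefSeq (build GRCm38.p6), in the direction of transcription. Capitals mark matches on either strand. For Retnla (chr16:48842359-48842608, plus strand) the match is to TTC and GAA with 4 bases between them, the spacing that STAT6 prefers. For Chil3 (chr3:106167565-106167814, minus strand) it is to the same ends with 3 bases between them (TTCNNNGAA), the spacing common to STAT factors. For Socs1 (chr16:10785537-10785786, minus strand) there are 2 overlapping matches to TTTC repeated after 2 bases of any kind, the core that interferon regulatory factors bind, read on the other strand.
Retnla: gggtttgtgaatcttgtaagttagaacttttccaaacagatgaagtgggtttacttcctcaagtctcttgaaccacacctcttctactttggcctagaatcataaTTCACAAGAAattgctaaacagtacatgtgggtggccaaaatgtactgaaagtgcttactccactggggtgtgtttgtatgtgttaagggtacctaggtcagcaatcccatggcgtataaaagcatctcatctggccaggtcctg
Chil3: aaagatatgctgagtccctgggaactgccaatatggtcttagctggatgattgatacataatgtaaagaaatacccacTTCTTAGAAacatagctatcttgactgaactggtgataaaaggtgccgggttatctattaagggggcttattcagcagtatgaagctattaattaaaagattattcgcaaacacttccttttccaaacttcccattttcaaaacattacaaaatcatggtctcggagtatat
Socs1: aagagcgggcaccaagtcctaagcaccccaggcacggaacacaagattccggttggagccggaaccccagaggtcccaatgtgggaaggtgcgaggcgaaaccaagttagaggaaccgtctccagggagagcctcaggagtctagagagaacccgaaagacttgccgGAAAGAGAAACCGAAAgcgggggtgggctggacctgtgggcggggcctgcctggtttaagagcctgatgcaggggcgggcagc
Of 27025 mouse promoters of this length, 5.86% held the STAT6 spacing, 7.18% the common STAT spacing and 3.04% the repeated TTTC. Among the 24 largest rises, 21 had a promoter in the table, and of these 0 held either STAT spacing and 2 held the repeated TTTC. Of the 24 largest falls, 18 had a promoter, and 2, 1 and 2 held the 3 motifs in the same order. A match is a stretch of letters and no measure of binding.

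Part of the macrophage identity list fell in the same wells. Of 21 measured, 9 were called lower and 0 higher, with a median of -0.27. Mpeg1, a pore-forming protein of macrophages, ranged from 9.33 to 9.97 (median 9.85) in the media-only control and from 7.98 to 8.68 (median 8.34) with Copaxone (log2 fold change -1.43 ± 0.09, adjusted p = 8.89e-12), by 1 of its 2 probes. Trem2, a lipid receptor of tissue macrophages, ranged from 6.44 to 7.01 (median 6.80) in the media-only control and from 5.19 to 6.03 (median 5.65) with Copaxone, a 2.25-fold fall with no overlap (log2 fold change -1.17 ± 0.09, adjusted p = 1.16e-10). Fcgr1, the high-affinity IgG receptor, Csf1r, the receptor for the growth factor M-CSF, and Adgre1, a surface receptor of macrophages, fell by log2 0.93, 0.84 and 0.75. Csf1r was called by 2 of its 3 probes and Adgre1 by 1 of 2. Lyz2 (-0.26) and Cd68 (-0.15) were not called, and 5 of the 21 genes, the 3 C1q chains among them, were dim in both groups. The summed linear intensity of the list overlapped, from 6201 to 11310 in the media-only samples and from 3943 to 7982 with Copaxone. Of 15 genes in the red pulp and marginal zone list, 1 was called higher and 6 lower. The one called higher was the scavenger receptor Cd163, at a dim level (0.17). Slc11a1, a metal transporter of phagosomes, and Spic, the transcription factor of red pulp macrophages, fell by log2 0.97 and 0.57, while Vcam1, Cd5l, Timd4 and Marco were dim, and 8 of the 15 members were dim in both groups.

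Genes by which phagocytes handle lipids followed 2 directions. Of 14 measured genes of cholesterol efflux and of the oxysterol receptor LXR, 2 were called higher and 7 lower. Apoe, the apolipoprotein that macrophages secrete, had the largest fall among them (log2 fold change -2.65 ± 0.08, adjusted p = 3.16e-18). The cholesterol exporter Abcg1, the scavenger receptor Cd36 and Mylip, which degrades the LDL receptor, fell by log2 0.89, 0.98 and 0.76. For Mylip, 1 of 2 probes was called. Pltp, a phospholipid transfer protein, rose: it ranged from 4.65 to 5.48 (median 5.34) in the media-only control and from 6.01 to 7.28 (median 6.68) with Copaxone (log2 fold change 1.44 ± 0.13, adjusted p = 4.88e-09). Alox5ap, which hands arachidonic acid to 5-lipoxygenase, ranged from 6.91 to 7.40 (median 7.13) in the media-only control and from 5.62 to 6.13 (median 5.88) with Copaxone (log2 fold change -1.28 ± 0.07, adjusted p = 1.44e-12). Pla2g7, which breaks down platelet-activating factor, and Smpdl3a, a nucleotide phosphodiesterase of macrophages that LXR induces, fell 2.9-fold and 3.69-fold. Among enzymes of amino acid breakdown, Hal, which degrades histidine, ranged from 7.12 to 7.59 (median 7.34) in the media-only control and from 4.94 to 5.51 (median 5.24) with Copaxone, so that every Copaxone sample was within 1 log2 unit of the array medians (log2 fold change -2.08 ± 0.07, adjusted p = 2.01e-17). Of 19 antioxidant genes, 3 were called lower and 0 higher, a share of 15.8% beside 18.6% of all genes. Their median log2 fold change was -0.06. The genes called lower were catalase (Cat), sulfiredoxin (Srxn1) and the lipid peroxidase Gpx4 (-0.84, -0.74 and -0.58). For Cat, 1 of 2 probes was called, and only 5 Copaxone samples lay below all media-only samples. Selenop, the selenium carrier protein, fell 2.83-fold with no overlap.

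Dendritic cell genes were called in both directions. Of 17 measured genes of conventional dendritic cells, 5 were called higher and 4 lower, and 6 were dim in both groups, among them Zbtb46, Xcr1 and Clec9a. Batf3 and Irf8, transcription factors of cross-presenting dendritic cells, and Itgax, which encodes CD11c, rose by log2 0.82, 0.62 and 0.54. Cd24a, Clec10a and Flt3 fell by log2 1.49, 1.32 and 0.49, Flt3 by 1 of its 2 probes. Cd24a is also a gene of immature B cells. Of 10 plasmacytoid dendritic cell genes, 5 were called lower and 0 higher. With the median over all probes of each gene, 3 were called lower. Ly6d, a surface protein shared with B cells, ranged from 9.06 to 9.92 (median 9.82) in the media-only control and from 7.40 to 8.39 (median 7.79) with Copaxone (log2 fold change -1.75 ± 0.12, adjusted p = 6.25e-11). Tcf4, the factor that defines plasmacytoid dendritic cells, fell by log2 0.45, by 1 of its 2 probes.

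Some markers of neutrophils and platelets fell too. Of 16 neutrophil genes, 6 were called lower, among them S100a9, S100a8, Retnlg and Camp (-0.91, -0.58, -0.65 and -0.65). S100a9 ranged from 9.56 to 10.31 (median 9.95) in the media-only control and from 8.71 to 9.45 (median 8.99) with Copaxone (log2 fold change -0.91 ± 0.10, adjusted p = 9.10e-08). Ly6g, Elane and Ngp, which define the lineage, were dim. Of 10 platelet and megakaryocyte genes, 3 were called lower and 1 higher, the integrin chain Itgb3 (1.10), which T cells and macrophages can also express. The platelet chemokines Ppbp and Pf4 were bright in the media-only control. Ppbp ranged from 8.13 to 9.01 (median 8.67) in the media-only control and from 6.73 to 7.41 (median 7.27) with Copaxone, a 2.73-fold fall (log2 fold change -1.45 ± 0.10, adjusted p = 5.50e-11), and Pf4 ranged from 11.64 to 11.95 (median 11.80) in the media-only control and from 10.48 to 11.60 (median 11.09) with Copaxone (log2 fold change -0.65 ± 0.11, adjusted p = 5.90e-05), whereas 6 of the 10 genes, Itga2b and Gp9 included, were dim in both groups. Sparc, a matrix protein of stroma that platelets and megakaryocytes also store, fell by log2 0.90, by 1 of its 2 probes. In the list of basophils and mast cells, 11 of 14 genes were dim in both groups, Mcpt8 and Cpa3 among them. The share called was 14.3% beside 18.6% of all genes, and the single gene called higher was Il4, which Th2 cells also make. No gene of 5 for eosinophils was called. Il5ra, the interleukin-5 receptor chain that B cells also carry, was at 12.93 in 1 Copaxone sample of lot 9, beside a median of 6.46 over the 17. It was not called over all samples (log2 fold change 1.04 ± 0.59, adjusted p = 0.286) but was called higher without that lot (log2 fold change 0.62, adjusted p = 0.00591).

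Genes that a growing cell draws on rose in several lists. Of 19 aminoacyl-tRNA synthetases, 12 were called higher and 0 lower (median 0.56), of 18 genes of one-carbon, serine and nucleotide synthesis 12 and 0 (0.51), of 22 proteasome subunits 13 and 0 (0.45), of 19 chaperones 11 and 1 (0.54) and of 24 respiratory chain genes 10 and 0 (0.24). After cyclic loess these counts were 10 and 0, 10 and 0, 11 and 0, 9 and 1 and 4 and 0. Shmt2, the mitochondrial enzyme that turns serine into one-carbon units, ranged from 7.63 to 8.12 (median 7.82) in the media-only control and from 8.02 to 9.15 (median 8.69) with Copaxone (log2 fold change 0.87 ± 0.10, adjusted p = 2.79e-07). Pfas, Gart and Atic, of purine synthesis, and Umps, of pyrimidine synthesis, rose by log2 0.77, 0.76, 0.70 and 0.72. For Umps, 1 of 2 probes was called. Among the synthetases Eprs, Hars and Gars rose by log2 0.76, 0.68 and 0.64. Hspd1, the mitochondrial chaperonin, and Cct3, a subunit of the cytosolic one, rose by log2 0.97 and 0.89, and Hspb1, a small heat shock protein, was the single chaperone that fell (log2 fold change -0.93 ± 0.13, adjusted p = 7.89e-06). Psmd14, the deubiquitinase of the proteasome lid, rose in all 17 Copaxone samples above the media-only range (log2 fold change 0.71 ± 0.08, adjusted p = 5.13e-07). These genes are used by every cell type in the well.

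Lists of supply genes held members called in both directions. Of the amino acid transporters and metal genes, only members that rose are named here. Of 12 amino acid transporters, 2 were called higher and 1 lower (median 0.03), 25% beside 18.6% of all genes. Slc7a5 and Slc1a5, importers of large neutral amino acids and of glutamine, rose by log2 0.69 and 0.56, the former by 1 of its 2 probes. Of 20 genes of iron and metal handling, 5 were called higher and 3 lower (median 0.04). Tfrc, the transferrin receptor, and Slc39a6, a zinc importer, rose by log2 0.39 and 0.76. Bcat1 and Bcat2, which transaminate branched-chain amino acids, both rose (0.75 and 0.56). Of 14 genes of the integrated stress response, 4 were called higher and 2 lower. Asns, asparagine synthetase, and Stc2, a secreted glycoprotein, rose by log2 0.64 and 0.91, while Trib3 (0.12) and Chac1 (0.20) were not called, and Ddit4, an inhibitor of mTORC1, and the lipoprotein receptor Vldlr were the members that fell (-0.87 and -0.44, the latter by 1 of its 2 probes). Of 20 V-ATPase and acidification genes 1 was called higher and 2 lower, and of 16 autophagy genes 2 and 3 (0 and 4 after cyclic loess). These shares were 15% and, before cyclic loess, 31.2%, beside 18.6% of all genes.

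**Figure D3:**
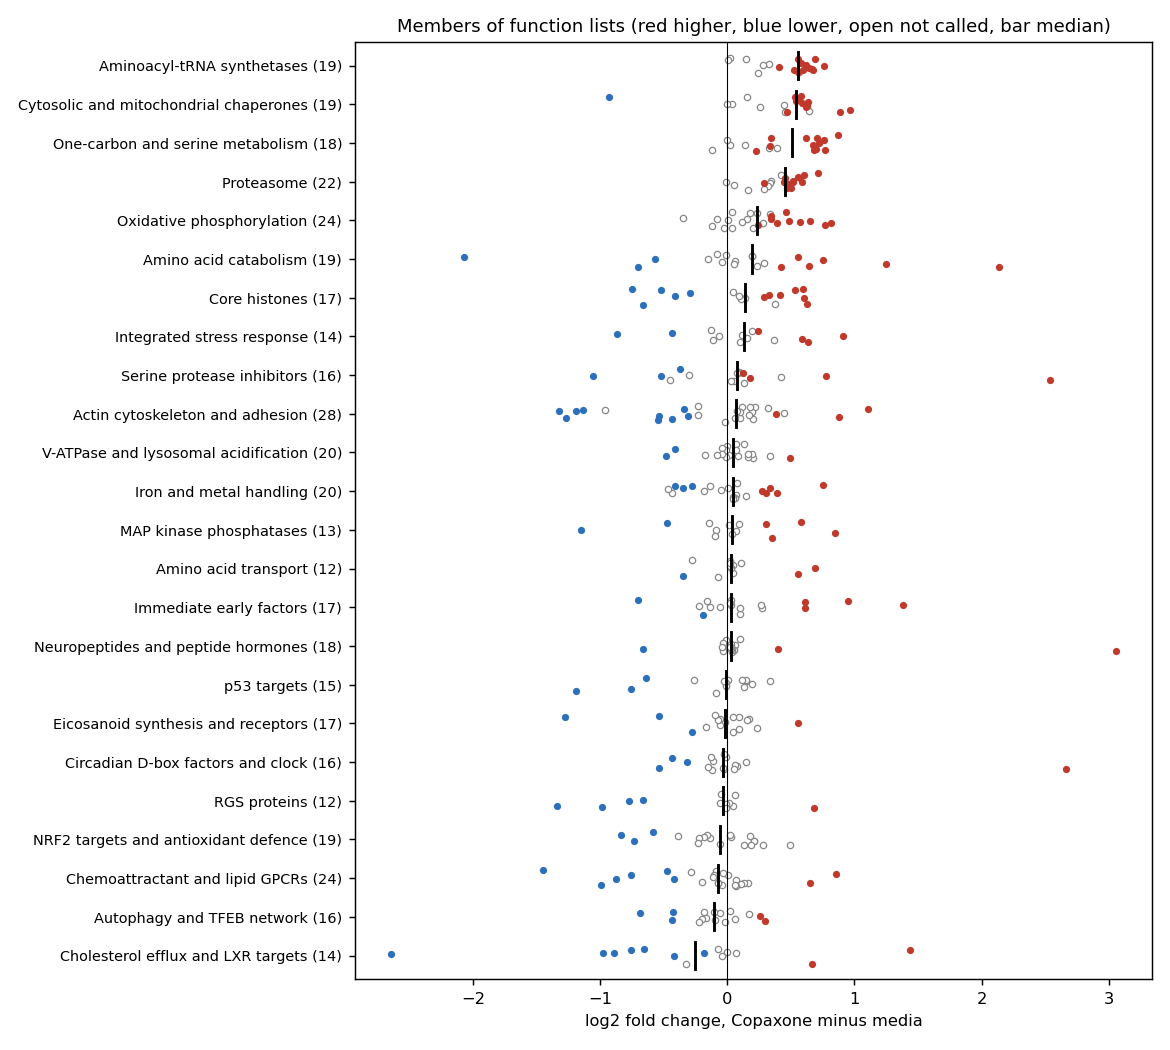
Log2 fold change (Copaxone minus media) of each measured member of the 24 function lists, drawn as in the plot of cell marker lists. Aminoacyl-tRNA synthetases (median 0.56), chaperones (0.54) and one-carbon genes (0.51) have the highest medians, the cholesterol efflux list the lowest (-0.25), and the list of neuropeptides holds Penk far to the right of members near 0.

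Several of the largest changes were in genes whose part in these cells is less well known. Prag1, a pseudokinase linked to cytoskeletal signalling, ranged from 7.20 to 7.89 (median 7.68) in the media-only control and from 9.11 to 10.50 (median 9.74) with Copaxone, a 4.19-fold rise (log2 fold change 2.07 ± 0.15, adjusted p = 9.63e-11), and Sypl, a vesicle membrane protein related to synaptophysin, ranged from 6.79 to 7.38 (median 7.12) in the media-only control and from 8.45 to 9.54 (median 9.11) with Copaxone, a 3.83-fold rise (log2 fold change 1.94 ± 0.10, adjusted p = 1.90e-13). Both genes have 2 probes, and both probes were called higher. Pla2g12a, a secreted phospholipase, Casp6, an executioner caspase, and Rab35, a GTPase of endosome recycling, rose 3.73-fold, 3.39-fold and 3.33-fold with no overlap between groups. Samsn1, an adaptor that restrains B cell responses, rose 3.37-fold in the mean, but its media-only values ran from 4.90 to 8.35 and its Copaxone values from 5.56 to 9.73. Gbp11, a guanylate-binding protein, ranged from 5.13 to 6.01 (median 5.71) in the media-only control and from 5.003 to 8.18 (median 7.84) with Copaxone: 16 Copaxone samples lay above the media-only range and 1, replicate 1 of lot 3, lay below it. Guanylate-binding proteins are near-identical copies in part, so Gbp11 may share signal with its neighbours. Among falls, Jhy, Arhgef3 and Cd300c2, a myeloid receptor, dropped 2.94-fold, 2.81-fold and 2.81-fold, each with no overlap. Dok3, an adaptor that dampens B cell and macrophage signalling, fell 2.86-fold (log2 fold change -1.52 ± 0.27, adjusted p = 0.00016), and 3 Copaxone samples, replicate 1 of lots 9, 7 and 3 at 5.48, 5.84 and 5.91, were far below the rest, the lowest of which was at 7.09. Cd1d1, which presents lipids to NKT cells, fell 2.64-fold by both of its probes, and Tecpr1 and Pde2a fell 2.6-fold and 2.49-fold.

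The 9 Copaxone lots lay close together. Over the 141 probes that rose at least 2-fold, the median log2 rise of a lot over the media-only mean lay between 1.27 and 1.40, and over the 166 that fell at least 2-fold the median lay between -1.31 and -1.12. All 141 probes were above the media-only mean in 7 lots, and 139 and 140 were in lots 8 and 9. Since these probes were chosen with the same samples, this describes the lots and tests nothing. In a test over the lots among the 17 Copaxone samples, 10 probes (0.0254%) were called, 1340 (3.4%) had an unadjusted p under 0.05, and 0 of the 10 were called between Copaxone and media. For 7 of the 10 the lot that stood apart was lot 8, which is a single well. Ndufa6, for example, was at 5.01 in that well and had a median of 9.32 over all Copaxone samples, and Tpt1 was at 9.78 beside a median of 13.35. Of the other genes named here, 0 were called between lots (smallest adjusted p 0.404). The closest to a call was Cdkn1b, whose lot means lay between 6.58 in lot 8 and 7.52 in lot 2, all below the lowest media-only sample at 8.04.

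**Figure D4:**
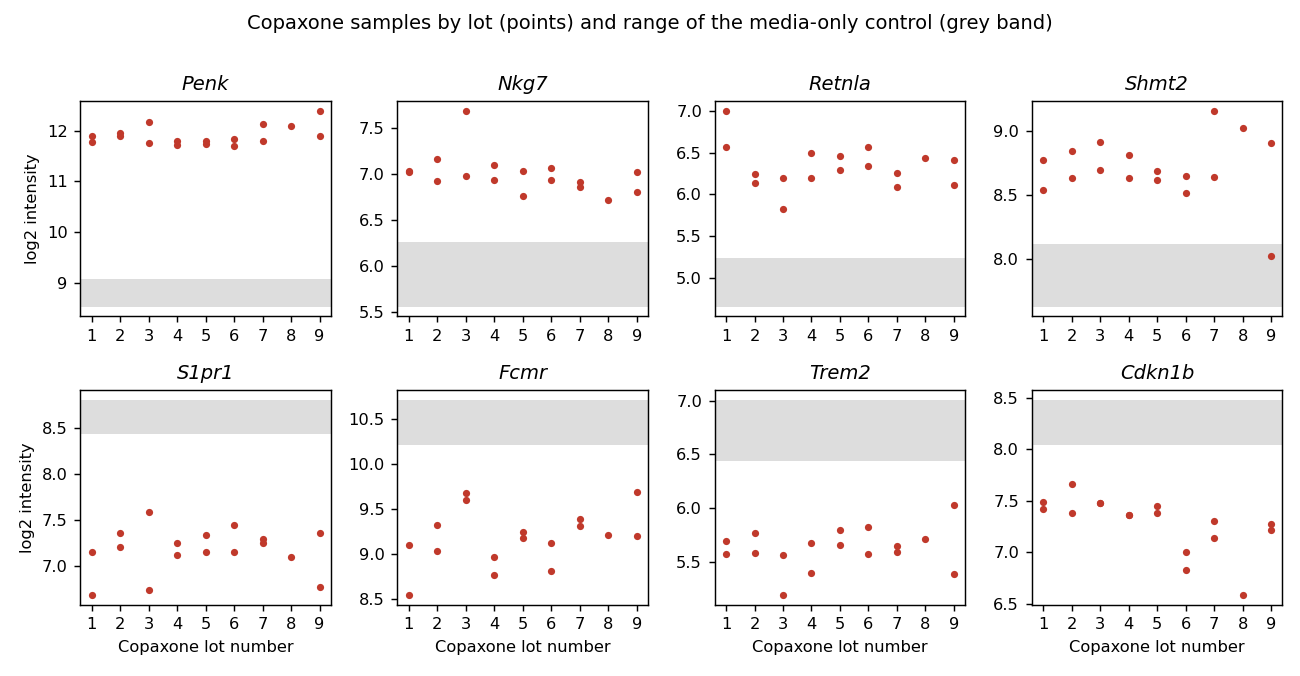
Log2 intensity of 8 genes in the Copaxone samples by lot number (points, 2 wells a lot and 1 for lot 8) over the range of the 7 media-only samples (grey band), with a separate vertical scale for each gene. All points of Penk, Nkg7 and Retnla lie above the band and all points of S1pr1, Fcmr, Trem2 and Cdkn1b below it, and 1 point of Shmt2, in lot 9, lies within it.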

How the data were processed

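RNA of whole wells was labelled with Cy3 and measured on mouse oligonucleotide arrays of Agilent. The deposited values are log2 intensities: the authors corrected each spot for background with normexp and quantile-normalized all 48 arrays with limma (version not given in the sources used here), and left out 1 Copaxone and 1 media-only array for poor quality. Spots numbered 43020. Where 10 or more of them shared both symbol and accession they were averaged (387 such groups), which gave 39430 probes. Of these, 29436 carry 1 of 22485 gene symbols, taken from the platform annotation with 0 updates. All per-sample columns were mapped (0 unused).

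Copaxone and media-only samples were compared with limma 3.58.1 (lmFit, eBayes) in R 4.3.3, two-sided, with Benjamini-Hochberg adjustment over all probes at 0.05. Lots were compared with an F test among the 17 Copaxone samples. A gene is represented by its brightest probe over the 24 samples. No filter on low values was used, so genes near background were tested, and levels of different probes are not comparable. The number of arrays limits the precision. In simulated data on 39430 probes for Copaxone against media, with 50 changed probes of each size, limma recovered 46% of 1.3-fold, 88% of 1.5-fold, 98% of 2-fold and 100% of 4-fold changes, with 8 false calls. The noise was independent between probes, and far fewer probes were changed than the 16.2% called in the data. The adjusted threshold depends on that share, so these figures do not carry over to the data.

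The members and gene lists were chosen with earlier results of these data known. Named genes are up to 24 largest rises and 24 largest falls, up to 5 called members per list with the largest change, members of cell lists, and members of lists that went both ways. Retnla, Chil3, Ch25h, Cd1d1, Tecpr1, Pde2a, Cdkn1a, Mdm2, Ndufa6 and Tpt1 were chosen after their values were seen. Promoters were searched on both strands and come from RefSeq (GRCm38.p6). Figures were drawn with matplotlib 3.10.9 in Python 3.11.15. Alternatives were the methods' t-test, a fit of all 4 groups, an intensity trend with robust prior variance, cyclic loess on the deposited values, array weights, lot means, lot as a random block, replicate number as a block, probes above the median brightness, means per gene symbol, the median over all probes of each gene, and each media-only sample or Copaxone lot left out in turn. Leaving out the 3 samples of lowest correlation with their group was added after seeing the data. These were replicate 1 of Copaxone lots 9 and 7 and media-only replicate 6, so replicate 1 of lot 3 stayed in.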

Additional observations from a re-analysis of the deposited data

Results flagged for a closer look

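In the media-only control of 7 samples, 1 sample stood far from the others for 19 of the 202 named genes, by a rule that chance meets in about 1 of 20 groups. Replicate 6, which also had the lowest correlation with its group among media-only samples (0.975), was the low one for Batf (7.43), Cd8a (5.42), Dok3 (8.14), Flt3 (5.49), Pla2g12a (5.13), Smpdl3a (7.71) and Tbx21 (4.88) and the high one for Retnlg (5.94). Replicate 1 was low for Ccr7 (8.92) and Xcl1 (4.61) and high for Blnk (11.19). Replicate 4 was low for Cfl1 (9.20), Itgax (4.75) and Itgb3 (7.11), replicate 2 was low for Samsn1 (4.90) and high for Nts (5.33), and replicate 5 was low for Cd1d1 (7.77) and high for the histone gene H4c8 (7.75). Replicate 7 was low for Serpinb1a (9.58).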

How the results depend on the processing

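Between Copaxone and media, 6374 probes were called. The methods' t-test called 6030 after Benjamini-Hochberg (9823 at an unadjusted p under 0.05, 9994 with limma). The other alternatives called from 6181 (intensity trend) to 7141 (all 4 groups in one fit), 4360 genes were called with means per gene symbol, and leaving out each media-only sample or lot in turn gave 5699 to 6749. After cyclic loess, 2745 were higher and 3477 lower, 44.1% higher beside 53.9% before. With replicate number as a block 2243 were called (1039 higher, 1204 lower). Numbers 3 to 7 exist in the media-only control alone, so this fit rests on 2 of its 7 samples. Numbers did not pair the samples (correlations of deviations 0.163 and -0.0963), and they count wells within a lot for Copaxone. With this block Spry2 was at 0.06 (adjusted p = 0.939) in place of a fall, and 27 of the named genes lost their call. The 43 lists held 290 calls, and 249 to 311 under the alternatives. Between lots 10 probes were called, 0 with the 8 lots of 2 wells alone and 20 with the intensity trend. Leaving out each lot was not run for that test. Dim probes have little signal over background, which limits what a call or its absence shows there.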

Other observations

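Further gene groups, several of them also described above, are counted here, and most held members in both directions. Of 17 histone genes, 7 were called higher and 5 lower (6 and 5 after cyclic loess). H1f5 and H2ac4 rose by log2 0.63 and 0.60, and H4c8 and H2bc4 fell by log2 0.75 and 0.67. Histone genes are near-identical copies in large part, so their probes may share signal. Of 16 inhibitors of serine and cysteine proteases, 4 were called higher and 3 lower (4 and 5 after cyclic loess). Slpi, which inhibits neutrophil elastase, rose 5.82-fold, and Serpinb6b rose by log2 0.78, while Serpinb1a, which inhibits neutrophil serine proteases and granzyme-like enzymes, fell: it ranged from 9.58 to 9.98 (median 9.89) in the media-only control and from 8.12 to 9.44 (median 8.77) with Copaxone (log2 fold change -1.06 ± 0.11, adjusted p = 7.89e-08).

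Of 19 genes of amino acid breakdown, 6 were called higher and 3 lower, and of 20 genes of iron and metal handling 5 and 3. Of 12 amino acid transporters, 2 were called higher and 1 lower, and of 17 eicosanoid genes 1 and 3. These shares were 25% and 23.5%, beside 18.6% of all genes. Of 13 MAP kinase phosphatases and related inhibitors, 4 were called higher and 2 lower, and of 17 immediate early factors 4 and 2. Of 10 erythroid genes 0 were called higher and 1 lower, and of 13 stromal and endothelial genes 0 and 2, with 7 and 10 dim in both groups. The shares called were 10% and 15.4%, both below the 18.6% of all genes. Cysltr2, a cysteinyl leukotriene receptor, was the eicosanoid gene that rose (log2 fold change 0.55 ± 0.08, adjusted p = 5.88e-06). In autophagy, Bnip3l, a receptor for the removal of mitochondria, fell by log2 0.69.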
